A study of Caenorhabditis elegans with 20 samples.

Results

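The cytochrome P450 (P450) and UDP-glucuronosyltransferase (UGT) genes of the nematode Caenorhabditis elegans were followed across purifications of ribosome-bound RNA from 5 cell classes. Members were taken by name from the deposited tables, every gene called cyp followed by a family number, a subfamily letter and a gene number, or ugt followed by a number. The rule found 121 genes of the 18917 listed, 63 P450 and 58 UGT genes. In a RefSeq gene table, 27 further names fit the rule, 18 P450 and 9 UGT, and these were listed in none of the 5 tables.

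P450 enzymes are heme proteins, most of them in the membrane of the endoplasmic reticulum, that add an oxygen atom to fatty acids, sterols, drugs and plant or bacterial toxins. They draw electrons from a reductase and from cytochrome b5. UGT enzymes join a sugar from a nucleotide sugar donor to such oxidized or hydroxylated molecules, which makes them soluble so that they can be exported. In C. elegans the intestine is the main site of fat storage and of this chemistry, and single P450 genes are known from the eggshell, the pharynx and hypoxia signalling.

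Translating ribosome affinity purification (TRAP) pulls the ribosomes of chosen cells out of a lysate of whole animals and sequences the RNA they carry. The strains were JAC127 (muscle), JAC382 (intestine), JAC126 (neurons in general, called neuronal), JAC433 (serotonin neurons) and JAC379 (dopamine neurons), each with 2 TRAP and 2 whole-animal input libraries, 20 in all. All were untreated L4 larvae grown at 22 °C on OP50-1 bacteria and collected 46 to 48 h after release from L1 arrest. Each strain is 1 line with its own input. The sources used here do not name the promoter or the ribosomal tag of any strain.

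Levels are the authors' RPKM (read counts scaled to gene length and library depth), a scale that allows genes to be compared. A change is log2 of TRAP over input on RPKM + 1, which understates low genes, with the SE of the limma fit, 2 and 2 libraries and Benjamini-Hochberg adjusted p over all genes tested. A second limma fit held the replicate number as a block, so that TRAP was set against the input of its own replicate. Its adjusted p is called the paired p below. In muscle, intestine, neuronal and dopamine the paired fit took its spread from a trend over all genes, not from the gene itself. Each table lists a gene only if TRAP or input reached 1 RPKM in that replicate, so an unlisted gene was low in both.

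Libraries held 4458152 to 239674141 recovered reads, and a listed member had a median of 25 and 14 reads in the neuronal inputs against 78 to 3014 in the other libraries. Neuronal input replicate 2 stood apart, with summed P450 and UGT levels of 30.8 RPKM against 612 RPKM in replicate 1, and the members called in neuronal TRAP are given with and without it. Of the marker lists, 9 of 10 muscle genes were higher in muscle TRAP, 10 of 10 neuron genes in neuronal TRAP and 2 of 13 intestine genes in intestine TRAP (8 by paired p). Of the 5 serotonin and 5 dopamine neuron markers 0 passed in their own purification. By paired p, 2 were higher and 1 lower in serotonin, and 3 were higher and 2 lower in dopamine. Of 5 pharynx markers, 3 were higher and 1 lower by paired p in each of serotonin and dopamine TRAP, with median changes of 3.16 and 3.84. Their summed level was 462 and 347 RPKM in serotonin TRAP against 464 and 251 RPKM in input, and 193 and 1881 RPKM in dopamine TRAP against 333 and 219 RPKM in input. Their part in the members' values was not tested.

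P450 and UGT transcripts were most abundant in the intestine purification and least abundant in muscle, as levels set across tables that the authors normalized separately. Their summed level was 1734 and 1438 RPKM in intestine TRAP, against 1345 and 2121 RPKM in the intestine inputs. Serotonin TRAP held 752 and 868 RPKM against 1600.4 and 1693 RPKM in input, and dopamine TRAP held 626 and 559.7 RPKM against 1736 and 1494 RPKM. Input thus exceeded TRAP in both replicates of serotonin and of dopamine, by 1.95 to 2.77 times. Neuronal TRAP held 614 and 286 RPKM. Muscle TRAP held 35.99 and 62.2 RPKM against 27.1 and 175.9 RPKM in input, so the muscle pairs went opposite ways over the listed members. These were 14 in replicate 1 and 41 in replicate 2. Unlisted members, each below 1 RPKM, are not in the sums, so the direction in replicate 1 is not settled. The muscle inputs, which are whole-animal RNA, also lay below those of intestine, serotonin and dopamine. The low muscle level was thus not particular to TRAP. In bulk RNA, fewer cells of a type and less RNA per cell cannot be told apart.

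**Figure D1:**
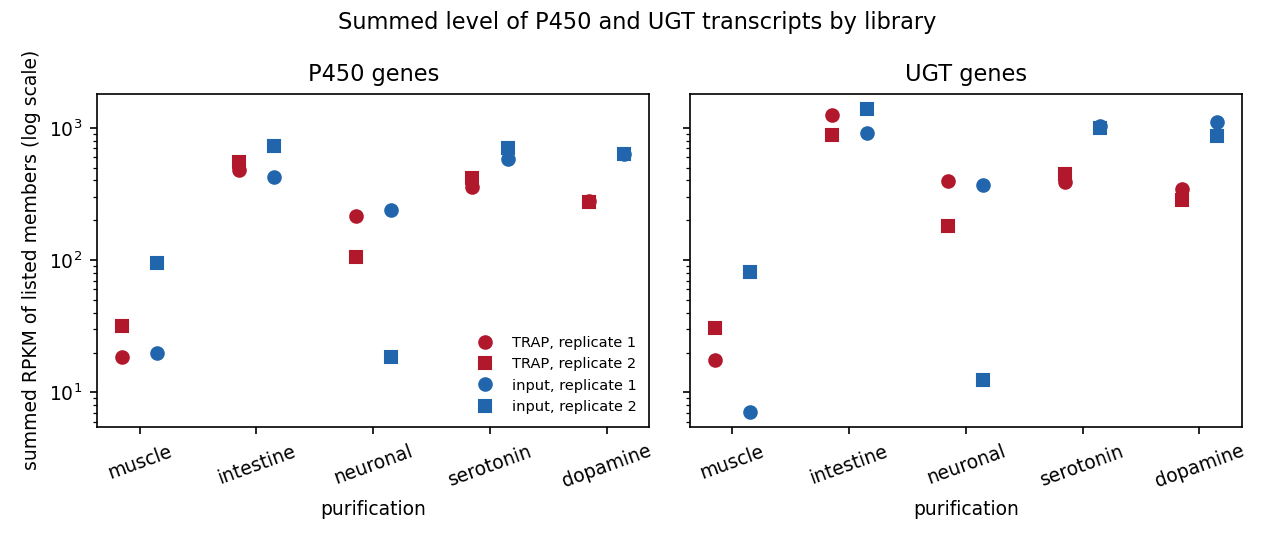
Summed RPKM of the listed P450 genes (left) and UGT genes (right) on a log axis, for TRAP (red) and whole-animal input (blue), with replicate 1 as circles and replicate 2 as squares. Both TRAP points lie below both input points in serotonin and dopamine, and the neuronal input of replicate 2 lies far below that of replicate 1.

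Muscle and neuronal also listed the fewest members. Both replicates listed 98 members in intestine, 99 in serotonin, 90 in dopamine, 50 in neuronal and 13 in muscle, and 96, 98, 88, 47 and 11 of these had the mean of 1 RPKM needed for a test. Only 13 members were listed in both replicates of all 5 purifications. They were cyp-31A1, cyp-31A2, cyp-31A3, cyp-31A5, cyp-35A2, cyp-44A1, ugt-22, ugt-26, ugt-28, ugt-31, ugt-48, ugt-50 and ugt-64. The counts that follow cover tested members, not the 121.

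In intestine, the highest members in TRAP were cyp-35A2, ugt-48, ugt-44 and ugt-47. cyp-35A2, a P450 induced by foreign compounds and linked to fat storage, stood at 94.9 and 129 RPKM in TRAP and 60.2 and 155 RPKM in input. ugt-48 stood at 94.98 and 92.7 RPKM for TRAP and 50.5 and 69.9 RPKM for input, with both TRAP libraries above both inputs. ugt-44 stood at 140.5 and 35.8 RPKM for TRAP and 90.9 and 48.5 RPKM for input, and its groups overlapped. ugt-47 was at 121 and 50.3 RPKM against 73.9 and 59.4 RPKM, again with overlap.

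Against its input, intestine TRAP had 0 of 96 members higher and 4 lower by limma, where 0.406% and 5.34% of all 14051 genes were called. The 4 were cyp-42A1, cyp-23A1, ugt-60 and ugt-42. cyp-42A1, of the nematode families related to mammalian CYP4 fatty acid hydroxylases, stood at 4.01 and 3.32 RPKM for TRAP and 12.99 and 47.8 RPKM for input. Both TRAP libraries lay below both inputs, and the change was -2.49 ± 0.64 (adjusted p = 0.0083). ugt-60 was at 3.73 and 1.48 RPKM against 8.37 and 15.7 RPKM, a change of -1.87 ± 0.62 (adjusted p = 0.0472). These groups did not overlap either. cyp-23A1 was at 0.757 and 0.342 RPKM against 1.68 and 5.72 RPKM and changed by -1.47 ± 0.45 (adjusted p = 0.0315). ugt-42 was at 0.463 and 0.130 RPKM against 1.06 and 3.59 RPKM and changed by -1.26 ± 0.40 (adjusted p = 0.0385), so both were low genes. Leaving out TRAP replicate 2 or input replicate 2 left 0 members lower (0.346% and 1.52% of all genes), and leaving out input replicate 1 gave 8 of 96 (9.03% of all genes). Under relative log expression scaling (RLE), limma called 0 members and 0 genes, and edgeR on recovered reads also called 0, with 15 members higher and 6 lower at an unadjusted p below 0.05, against 9.84% and 5.87% of all genes.

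The members as a whole sat above the other genes in intestine. Their median change was -0.25 against -0.74 for all genes, and 36 of 96 were above 0. P450 and UGT genes had medians of -0.22 and -0.25. Both TRAP libraries exceeded both inputs in 14 of 96 members, against 8.30% of all genes, and lay below them in 28, against 56.5%. By paired p, 1 member was higher and 13 were lower (2.26% and 20.9% of all genes). The paired fit on RLE-scaled libraries, which was added after seeing the data and took the median of all genes to -0.02, had 22 members higher and 4 lower, against 13.4% and 6.06% of all genes. Scaling therefore decided on which side of 0 most intestinal members fell, and 64 of 96 were above 0 under RLE. Of the 13 intestine markers, the median change was 1.22, above every member but cyp-37A1.

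cyp-37A1, of another CYP4-related family, had the highest change in intestine. It stood at 45.4 and 64.9 RPKM for TRAP and 23.3 and 19.8 RPKM for input, with no overlap. The change of 1.30 ± 0.60 did not pass (adjusted p = 0.131), while the paired adjusted p was 0.0487. In the neuronal tables cyp-37A1 was at 6.51 and 1.99 RPKM for TRAP and 47.2 and 0.612 RPKM for input, and in serotonin and dopamine TRAP and input lay within 18.9 to 25.8 RPKM. The next highest in intestine were ugt-23, at 80.5 and 69.4 RPKM against 41.1 and 39.4 RPKM, and cyp-32B1, at 7.11 and 6.23 RPKM against 3.37 and 3.77 RPKM. Their changes of 0.88 ± 0.59 and 0.75 ± 0.60 did not pass (adjusted p = 0.290 and adjusted p = 0.381; paired adjusted p = 0.167 and paired adjusted p = 0.250). In the paired fit on RLE-scaled libraries all 3 were called higher, cyp-37A1 by 2.12 (adjusted p = 1.93e-07), ugt-23 by 1.71 (adjusted p = 2.50e-05) and cyp-32B1 by 1.44 (adjusted p = 0.0076). The authors' deposited table of intestine-enriched genes holds these same 3 members, with mean enrichments of 3.54, 2.44 and 2.45, and no other. They are 2.48% of the members, where the table holds 719 of the 18917 genes listed. It was made by a fold cut-off from the same libraries, so it gives no separate support.

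The cyp-35A genes stood on the higher side of the intestinal P450 genes. All 4 tested genes of this xenobiotic-inducible subfamily had changes between 0.02 (cyp-35A5) and 0.51 (cyp-35A4), a median of 0.30, and 0 passed with or without pairing. The paired fit on RLE-scaled libraries called 3 of them higher, cyp-35A3 (adjusted p = 0.0051), cyp-35A4 (adjusted p = 0.0188) and cyp-35A2 (adjusted p = 0.0214). cyp-35A3 was at 31.97 and 75.6 RPKM for TRAP and 19.6 and 69.3 RPKM for input. cyp-35A1 reached only 1.13 RPKM, in 1 replicate. In contrast the 4 cyp-31A genes had changes between -1.50 and -0.97, and 2 of them were lower by paired p. The cyp-33C genes had a median of 0.27 over 6 genes and the cyp-14A genes one of -0.85 over 3. The genes cyp-35A2 to cyp-35A5 and the cyp-31A genes are close copies, so reads may be divided among them and single values are uncertain.

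In neuronal TRAP a few members stood well above input while most did not. limma called 5 of 47 members higher and 0 lower, where 16.8% and 0.588% of all 13435 genes were called. They were ugt-50, ugt-59, ugt-56, ugt-24 and cyp-33C12. Of these only ugt-50 had inputs above 1 RPKM. The other 4 reached the mean needed for a test through TRAP alone and so had to be higher there, and their values are a description. The median change of the members was 0.58 against 0.81 for all genes, with 40 of 47 above 0. Without neuronal input replicate 2 these medians were -0.56 and 0.05, with 12 of 48 members above 0. The sign of the members' median thus rested on 1 input library. With all libraries 4 members were higher by paired p, against 15.7% of genes, and ugt-24 was no longer called (paired adjusted p = 0.0664).

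ugt-50 (WBGene00011564) was the highest member in neuronal TRAP. It stood at 143 and 119.5 RPKM against 30.4 and 4.47 RPKM in input, and the change was 3.33 ± 1.05 (adjusted p = 0.0132). Elsewhere limma did not call ugt-50 with or without pairing, and it stood at 71.4 and 70.9 against 47.2 and 48.8 RPKM in intestine and 58.0 and 61.8 against 61.6 and 59.9 RPKM in serotonin. Dopamine TRAP held 63.8 and 37.8 RPKM of ugt-50 against 80.6 and 56.5 RPKM, and muscle TRAP 5.47 and 6.31 RPKM against 3.81 and 10.6 RPKM. ugt-50 was thus the most abundant member of neuronal, serotonin and dopamine TRAP by mean, with a change in intestine of 0.56 ± 0.59 (adjusted p = 0.510; paired adjusted p = 0.387). In the paired fit on RLE-scaled libraries it was called higher in intestine too, by 1.39 (adjusted p = 0.00095), and in neuronal TRAP by 2.21 (adjusted p = 0.0014).

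ugt-56, ugt-59 and cyp-33C12 were scarce outside neuronal TRAP. ugt-56 stood at 8.54 and 2.30 RPKM in neuronal TRAP against 0.133 and 0 RPKM in input, and elsewhere was listed only in serotonin replicate 1, at 0.0412 RPKM in TRAP and 1.17 RPKM in input. ugt-59 stood at 6.22 and 4.88 RPKM against 0.439 and 0 RPKM, and in serotonin and dopamine it lay at 0.284 to 0.682 RPKM in TRAP and 1.43 to 2.20 RPKM in input. Their neuronal changes were 2.40 ± 0.69 and 2.44 ± 0.78. The inputs rested on 1 and 0 reads for ugt-56 and on 3 and 0 reads for ugt-59, against 1952 and 205 and 1295 and 396 reads in TRAP.

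cyp-33C12, of the CYP2-related nematode families, was at 2.14 and 2.81 RPKM in neuronal TRAP and at 0 reads in both inputs. A floor of 3 reads came to 0.468 and 0.0662 RPKM in the 2 inputs. The TRAP mean was 9.28 times the mean of these floors, and the fold within replicate 1 alone was smaller. The fit gave 1.79 ± 0.53, a value that depends on the added 1 RPKM. Its relative cyp-33C6 was at 1.42 and 1.24 RPKM against 0 reads in both inputs. The TRAP mean was 4.80 times the mean of such floors (0.484 and 0.0686 RPKM), and the fold was again smaller within replicate 1. cyp-33C6 was not tested. It was too low for the test. Without input reads cyp-33C6 was listed through TRAP alone and had to be higher there, so its values are a description. Another gene of this subfamily, cyp-33C8, stood at 37.98 and 8.19 RPKM against 5.67 and 0.120 RPKM and its change was 2.79 ± 1.31 (adjusted p = 0.145; paired adjusted p = 0.148). The paired fit on RLE-scaled libraries called cyp-33C8 higher in neuronal TRAP, by 2.29 (adjusted p = 8.57e-05), and in intestine, by 1.20 (adjusted p = 0.0212). Both its TRAP libraries exceeded both inputs, there and in intestine, at 14.2 and 16.8 RPKM against 10.5 and 12.4 RPKM. cyp-33C12 was listed elsewhere in dopamine replicate 1 alone, at 1.45 RPKM in TRAP and 0.194 RPKM in input. ugt-24 was at 4.82 and 1.30 RPKM against 0.268 and 0.0950 RPKM, a change of 1.63 ± 0.59.

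Without neuronal input replicate 2, 0 of 48 members were called in neuronal TRAP, against 3.36% of all genes higher, and the median of all genes was 0.05. The changes were then 2.07 for ugt-50, 2.31 for ugt-56, 2.18 for ugt-59, 1.79 for cyp-33C12 and 1.53 for ugt-24, with limma adjusted p of 0.101 to 0.242 in a fit where the remaining input is assumed to vary like TRAP. Without TRAP replicate 1, 1 of 43 members was called, against 3.94% of all genes. Under RLE 1 member was called, ugt-59, and edgeR on recovered reads called 0 members and 0 genes, with 5 members higher at an unadjusted p below 0.05, against 22% of all genes. The authors' deposited table of neuron-enriched genes holds 6 members, ugt-59, ugt-56, cyp-33C12, cyp-33C6, cyp-33C8 and ugt-50. Their mean enrichments were 38.97, 34.9, 25.7, 12.6, 11.8 and 6.27. They are 4.96% of the members, where the table holds 2370 of the 18917 genes listed. It too comes from the same libraries and gives no separate support.

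**Figure D2:**
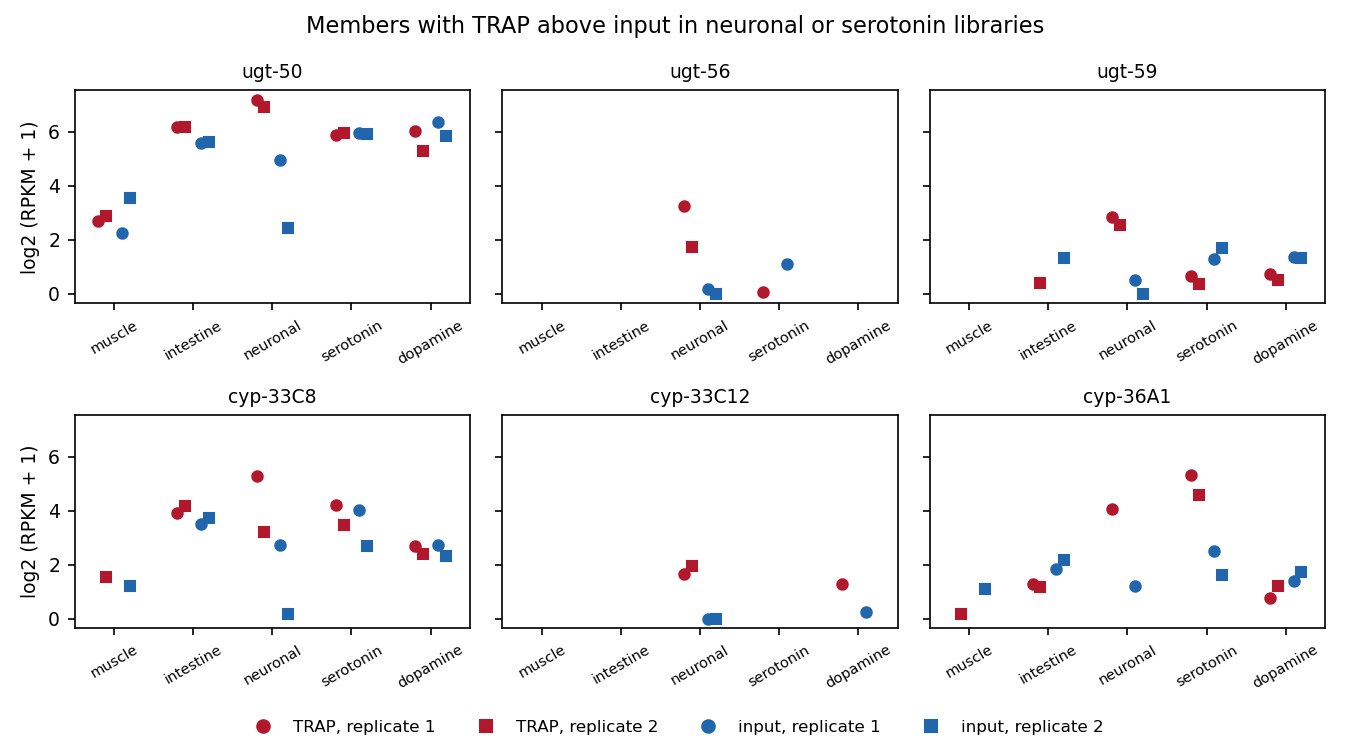
Level of 6 members in every library where they were listed, as log2 (RPKM + 1), with TRAP in red, input in blue, replicate 1 as circles and replicate 2 as squares. In neuronal TRAP ugt-50, ugt-56, ugt-59, cyp-33C8 and cyp-33C12 lie above both inputs, while cyp-36A1 reaches 38.7 and 22.7 RPKM in serotonin TRAP.

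cyp-36A1 (WBGene00007913) stood apart in the serotonin purification. This P450 is known in C. elegans as a gene acting downstream of the hypoxia factor HIF-1. It stood at 38.7 and 22.7 RPKM in serotonin TRAP against 4.68 and 2.07 RPKM in input, and at 0.691 and 1.32 RPKM in dopamine TRAP against 1.63 and 2.32 RPKM in input. In intestine it was at 1.42 and 1.27 RPKM for TRAP and 2.54 and 3.45 RPKM for input. In neuronal replicate 1 it was at 15.5 RPKM in TRAP, from 3615 reads, against 1.31 RPKM in input, from 10 reads, and replicate 2 did not list it. Muscle listed it in replicate 2 alone, at 0.134 RPKM in TRAP and 1.14 RPKM in input.

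TRAP thus exceeded input in both serotonin replicates and fell short of it in both replicates of intestine and dopamine. The serotonin change was 2.88 ± 0.52, which did not pass without pairing (adjusted p = 0.115) and passed with it (paired adjusted p = 0.0036). The dopamine change was -0.58 ± 0.43 (adjusted p = 0.397; paired adjusted p = 0.225). In the direct comparison the dopamine change was lower by 3.45 ± 0.72 (adjusted p = 0.795; paired adjusted p = 0.0092). Of 87 members compared between these purifications 0 passed without pairing, as did 0.00% of genes in either direction, and cyp-36A1 was the single member lower by paired p, against 0.329% of genes. At an unadjusted p below 0.05 limma and edgeR each had 1 member lower and 0 higher, against 0.979% and 0.836% of all genes lower. The authors' deposited table of 756 serotonin-enriched genes holds cyp-36A1 and no other member, at a mean enrichment of 10.7. Their table of 564 dopamine-enriched genes holds none. Both come from the same libraries and give no separate support.

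The serotonin and dopamine purifications held most members below input. Without pairing, limma called 0 of 98 and 0 of 88 members, and 0.00% of all genes in either direction, while 22 and 37 members were lower and 2 and 0 higher at an unadjusted p below 0.05. The same unadjusted threshold held 20.1% of all genes lower and 7.55% higher in serotonin, and 21.9% and 6.02% in dopamine. edgeR on recovered reads also called 0, with 13 and 18 members lower and 3 and 0 higher unadjusted, against 9.82% and 10.4% of all genes lower and 13.1% and 12.9% higher. By paired p, 48 of 98 members were lower and 2 higher in serotonin, against 29% and 9.77% of 14587 genes. In dopamine 52 of 88 were lower and 0 higher by paired p, against 30.5% and 8.44% of 14400 genes. With pairing and RLE scaling 29 were lower and 3 higher in serotonin (20.3% and 17.7% of genes) and 37 lower and 2 higher in dopamine (16.8% and 18.2%).

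The median change of the members was -0.96 in serotonin and -1.33 in dopamine, against -0.44 and -0.60 for all genes. Both TRAP libraries lay below both inputs in 54 of 98 members in serotonin, against 41.3% of genes, and in 61 of 88 in dopamine, against 43.0%. They lay above both inputs in 3 and 0 members, against 19.8% and 16.8%. By paired p 40 members were lower in both purifications, 83.3% of the serotonin and 76.9% of the dopamine set. Over all genes these shares were 77.4% and 74.7%. The UGT genes had the lower medians, -1.12 and -1.44 against -0.73 and -1.04 for P450 genes. Of the UGT genes 32 of 52 in serotonin and 34 of 47 in dopamine were lower by paired p, and of the P450 genes 16 of 46 and 18 of 41. Without dopamine TRAP replicate 1, dopamine TRAP replicate 2 or dopamine input replicate 2, limma without pairing called 1, 4 or 1 members lower, against 4.77%, 0.814% and 2.31% of all genes, and leaving out any serotonin library left 0.

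The intestine markers did not move as one list beside these values. Of 13 tested, 3 were higher and 2 lower in serotonin TRAP and 2 were higher and 3 lower in dopamine TRAP by paired p, with median changes of -0.002 and -0.79. Their summed level was 8392 and 8083 RPKM in serotonin TRAP against 4513 and 5547 RPKM in input, and 6483 and 2381 RPKM in dopamine TRAP against 3023 and 4887 RPKM. Epidermis markers had medians of -1.48 and -1.43, with 6 of 10 lower in each by paired p, 2 higher in serotonin and 1 higher in dopamine. By paired p 4 of 10 muscle markers were higher and 1 lower in serotonin (median change 0.89). In dopamine 4 were higher and 0 lower (1.48). Dopamine replicate 2 had a muscle marker sum of 49656 RPKM for TRAP and 13546.5 RPKM for input. Replicate 1 had 5661 RPKM for TRAP and 12071 RPKM for input. In serotonin the TRAP sum lay below input in both replicates. Of 10 neuron markers 3 were higher and 1 lower in serotonin (0.36), and 3 higher and 4 lower in dopamine (-0.38). The part of these cell types in the members' levels was not tested.

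**Figure D3:**
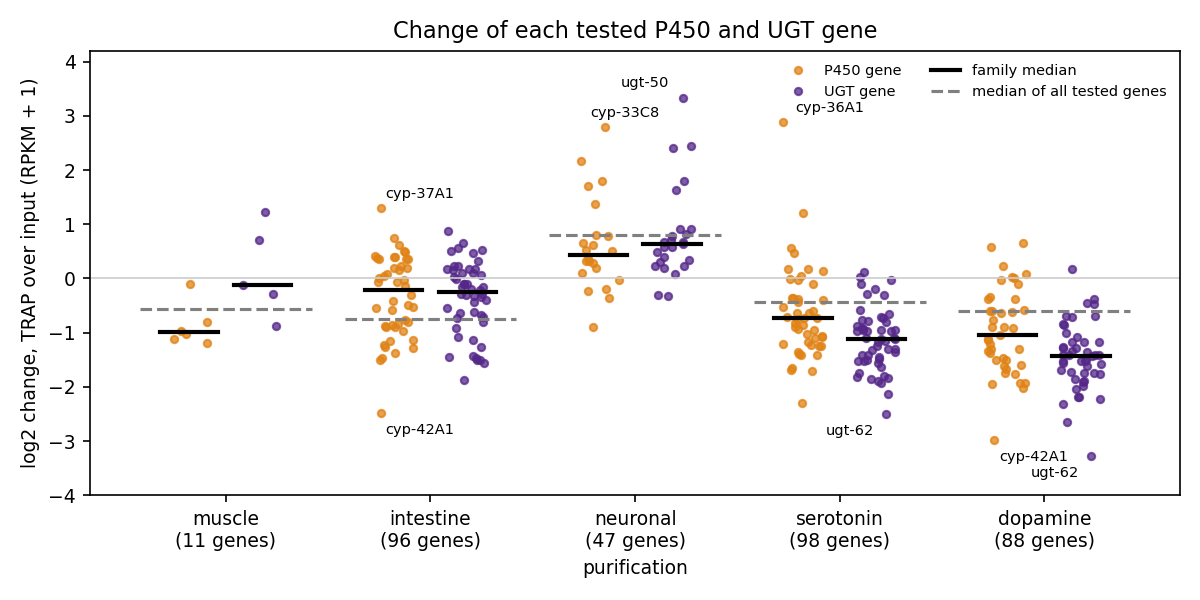
Change of each tested P450 (orange) and UGT (purple) gene as log2 of TRAP over input on RPKM + 1, with black bars for the family medians and a dashed line for the median of all tested genes. In serotonin and dopamine both family medians lie below the dashed line, in intestine both lie above it, and cyp-36A1 and ugt-50 stand above the other members of serotonin and neuronal TRAP.

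ugt-62, cyp-42A1 and ugt-12 were the members farthest below input. ugt-62 stood at 26.7 and 16.7 RPKM in serotonin TRAP against 172 and 89.4 RPKM in input, and at 7.24 and 7.31 RPKM in dopamine TRAP against 85.6 and 73.7 RPKM in input. It was the most abundant member of serotonin input replicate 1. The changes were -2.50 ± 0.50 (adjusted p = 0.115; paired adjusted p = 0.0043) and -3.28 ± 0.51 (adjusted p = 0.085; paired adjusted p = 8.66e-09), with no overlap in either purification. In intestine ugt-62 was at 49.2 and 28.3 RPKM for TRAP and 47.7 and 146 RPKM for input, where the groups overlapped.

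cyp-42A1 stood at 1.40 and 16.1 RPKM in serotonin TRAP against 15.1 and 59.8 RPKM in input, and at 2.58 and 9.18 RPKM in dopamine TRAP against 35.6 and 61.4 RPKM in input. Its changes were -2.29 ± 1.14 (adjusted p = 0.251; paired adjusted p = 0.0050) and -2.98 ± 0.69 (adjusted p = 0.085; paired adjusted p = 9.49e-07). Together with the intestine value given above, cyp-42A1 was below the input of its own replicate in all 6 pairs of these 3 purifications. That was not particular to cyp-42A1. Both TRAP libraries lay below both inputs in all 3 purifications for 12 members, cyp-42A1 not among them. Of all genes 56.5%, 41.3% and 43.0% lay so in intestine, serotonin and dopamine, each taken alone. ugt-12 stood at 6.60 and 9.94 RPKM in serotonin TRAP against 30.1 and 50.7 RPKM, and at 2.63 and 5.60 RPKM in dopamine TRAP against 23.04 and 38.3 RPKM. Its dopamine change was -2.65 ± 0.64 (adjusted p = 0.088; paired adjusted p = 3.53e-05). By paired p 6 members were lower in intestine, serotonin and dopamine alike, cyp-23A1, cyp-29A3, cyp-42A1, ugt-8, ugt-13 and ugt-41. The share over all genes was not computed for the 3 together. Of the 13 members lower in intestine, 53.8% were also lower in serotonin and 61.5% in dopamine. Over all genes these shares were 57.1% and 52.0%, so such overlap was not particular to the members.

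**Figure D4:**
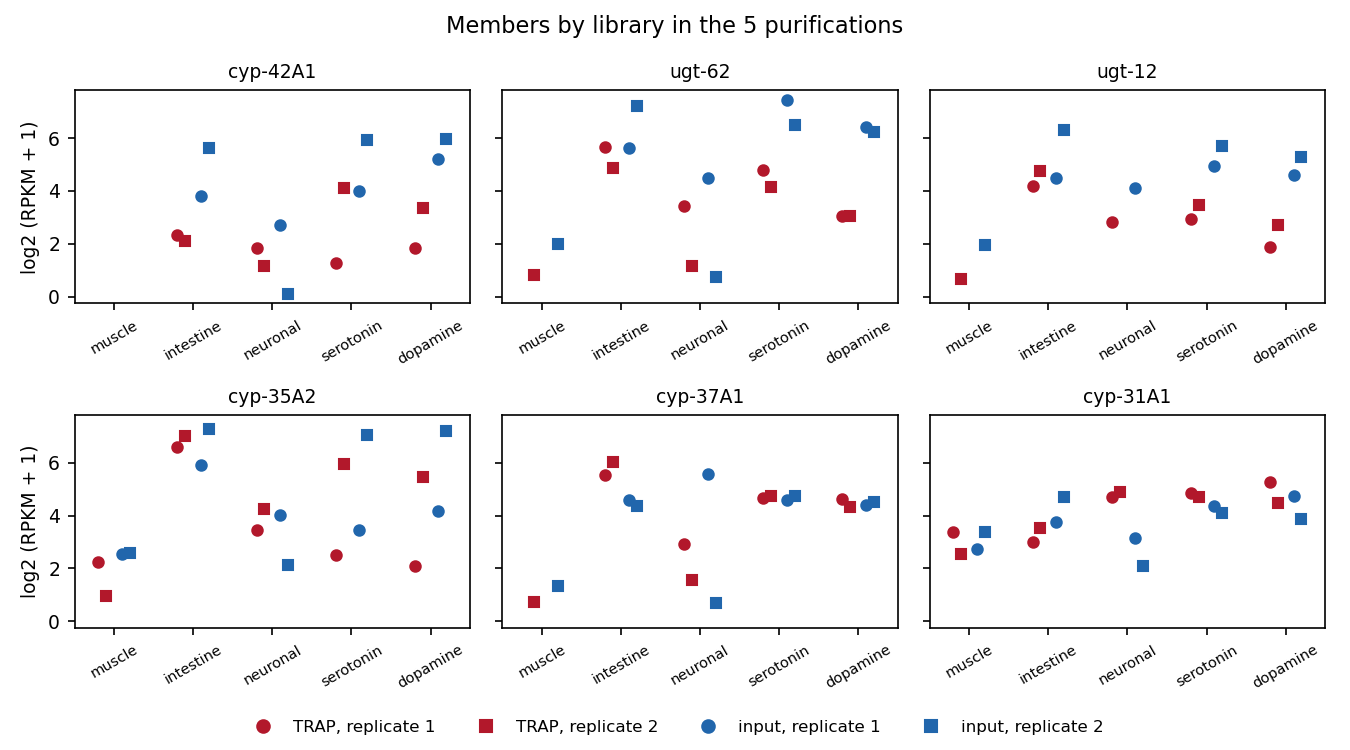
Level of 6 members in every library where they were listed, as log2 (RPKM + 1), with TRAP in red, input in blue, replicate 1 as circles and replicate 2 as squares. cyp-42A1, ugt-62 and ugt-12 lie below input in dopamine, cyp-37A1 lies above input in intestine, and cyp-35A2 differs between the replicates of serotonin and dopamine in TRAP and input alike.

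In serotonin and dopamine some members differed between replicates more than between TRAP and input. cyp-35A2 stood at 9.85 and 132 RPKM in the serotonin inputs and at 17.1 and 146 RPKM in the dopamine inputs. TRAP followed its input, at 4.68 and 60.9 RPKM in serotonin and 3.22 and 42.9 RPKM in dopamine. cyp-35C1 stood at 1.39 and 48.5 RPKM in the serotonin inputs and 1.997 and 61.0 RPKM in the dopamine inputs. ugt-22 stood at 14.5 and 71.1 RPKM and at 10.7 and 89.9 RPKM in the same libraries. All 3 were higher in replicate 2 of both strains, in TRAP too.

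Other members were high in replicate 1. cyp-37B1 stood at 72.1 and 22.5 RPKM in the serotonin inputs and at 97.4 and 3.59 RPKM in the dopamine inputs. ugt-18 stood at 48.8 and 5.57 RPKM and at 24.5 and 1.17 RPKM, and ugt-43 at 14.8 and 2.61 RPKM and at 20.8 and 1.27 RPKM. TRAP was high in the same replicate for all 3. For cyp-35A2 the dopamine change was -1.92 ± 1.24 (adjusted p = 0.330; paired adjusted p = 0.00083), and its groups overlapped.

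Differences of at least 4-fold on RPKM + 1 between the 2 inputs were counted. In serotonin 5 of 98 members were higher in replicate 2 and 6 in replicate 1, against 1.91% and 3.73% of all genes. In dopamine 4 of 88 were higher in replicate 2 and 6 in replicate 1, against 1.75% and 4.85%. The neuronal and muscle inputs differed more. In neuronal 0 of 47 were higher in replicate 2 and 29 in replicate 1, against 0.365% and 31.9%. In muscle 5 of 11 were higher in replicate 2 and 0 in replicate 1, against 28.5% and 0.707%. In intestine 1 of 96 was higher in replicate 2 and 0 in replicate 1, against 0.890% and 2.38%. Each is a difference between single libraries with no test. For 86 members measured in both serotonin and dopamine, the log2 difference of replicate 2 over replicate 1 in input was compared. It correlated between the 2 strains at r = 0.72 and rho = 0.62, as a description across genes that share libraries. Over 13931 genes r was 0.51. Among the markers, the summed epidermis level was higher in input replicate 2 of these 2 strains too. It was at 467 and 2883 RPKM in serotonin and 714 and 2401 RPKM in dopamine, and its part was not tested.

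**Figure D5:**
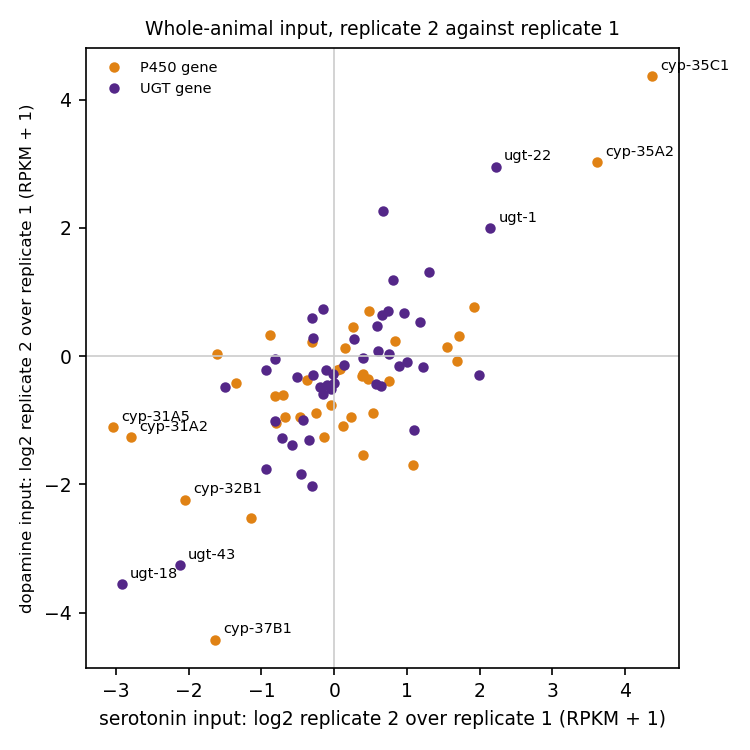
Difference between the 2 whole-animal inputs, as log2 of replicate 2 over replicate 1 on RPKM + 1, in serotonin (horizontal) and dopamine (vertical), 1 point per P450 (orange) or UGT (purple) gene. cyp-35C1, cyp-35A2 and ugt-22 lie at the upper right and ugt-18, ugt-43 and cyp-37B1 at the lower left.

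Members with known roles were read next. cyp-31A2 and cyp-31A3, needed together for a lipid of the eggshell, stood at 9.53 and 2.74 RPKM and at 9.28 and 3.31 RPKM in intestine TRAP. cyp-31A2 was at 24.7 and 6.87 RPKM in serotonin TRAP against 48.6 and 6.14 RPKM in input, and at 16.2 and 19.4 RPKM in dopamine TRAP against 26.5 and 10.4 RPKM. Neither purification set TRAP apart from input for it. cyp-31A1, annotated as a pseudogene in RefSeq, ran otherwise, at 24.96 and 28.5 RPKM in neuronal TRAP against 7.95 and 3.24 RPKM in input. It was at 7.07 and 10.6 RPKM in intestine TRAP against 12.5 and 25.4 RPKM in input, and it lay above both inputs in serotonin TRAP, at 27.96 and 25.4 RPKM against 19.4 and 16.1 RPKM.

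cyp-44A1, the mitochondrial P450 of C. elegans, stood at 8.25 and 5.86 RPKM in intestine TRAP against 12.2 and 13.6 RPKM in input, and passed in none of the 5 purifications by limma. cyp-33E1 and cyp-33E2, the second known for making eicosanoid signals from fatty acids, were lower by paired p in serotonin and dopamine, as was cyp-33E3. cyp-33E2 stood at 2.07 and 1.90 RPKM in serotonin TRAP against 7.41 and 10.1 RPKM in input, and at 1.54 and 3.08 RPKM in dopamine TRAP against 9.06 and 7.33 RPKM. cyp-29A3, which shares that eicosanoid role, stood at 1.05 and 0.444 RPKM in intestine TRAP against 2.19 and 4.49 RPKM in input.

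cyp-13A12, known from the behavioural response to reoxygenation, was listed only in replicate 2 of intestine, serotonin and dopamine, at 1.08 to 2.38 RPKM in TRAP and 1.61 to 1.76 RPKM in input. cyp-35B1 was listed in both replicates of serotonin alone, at 1.43 and 1.36 RPKM for TRAP and 1.36 and 0.921 RPKM for input. cyp-34A9 stood at 3.79 and 7.29 RPKM in intestine TRAP against 2.26 and 6.33 RPKM in input, and at 2.60 and 11.6 RPKM in serotonin TRAP against 11.3 and 24.9 RPKM.

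In muscle 11 members could be tested, and 0 passed in either direction by limma, where 1.10% of 10048 genes were called higher and 0.945% lower. At an unadjusted p below 0.05 limma had 0 and edgeR 2 higher, against 5.25% and 12.9% of all genes. The highest in TRAP were cyp-31A1, at 9.39 and 4.81 RPKM against 5.67 and 9.52 RPKM in input, ugt-50, ugt-64 and cyp-31A2. ugt-64 stood at 2.56 and 5.23 RPKM for TRAP and 1.17 and 14.2 RPKM for input. Both TRAP libraries lay above both inputs in 1 of 11 tested members, against 13.2% of all genes, and below them in 2, against 28.6%. The 1 above was ugt-48, at 2.10 and 3.95 RPKM against 0.0210 and 1.78 RPKM, a change of 1.22 ± 0.65 (adjusted p = 0.475; paired adjusted p = 0.248). Leaving out muscle input replicate 1 gave 3 of 13 members lower, against 17.8% of all genes.

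Changes were also set against each other between purifications, with each strain against its own input in separately normalized tables. Between intestine and muscle 0 of 13 members differed by limma, against 0.635% of genes higher and 3.89% lower in intestine, and 0 did so at an unadjusted p below 0.05 by limma or edgeR, where limma had 3.51% of genes higher and 8.89% lower. Between intestine and neuronal 0 of 46 differed, against 0.137% and 13.4%, with 3 lower unadjusted by limma (26% of genes) and 1 higher and 1 lower by edgeR (9.01% and 16.7%). Without neuronal input replicate 1, neuronal TRAP replicate 2 or neuronal input replicate 2 there were 13 lower, 1 lower or 1 higher, where 52.4% and 12.2% of genes were lower and 0.339% higher. The difference for ugt-50, intestine minus neuronal, was -2.77 ± 1.22 (adjusted p = 0.147; paired adjusted p = 0.0579), where the median of all genes was -1.44.

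Many members lie beside each other in the genome, since both families grew by local duplication. In the RefSeq gene order, 21 runs of 2 to 7 neighbouring protein-coding genes of the same family hold 69 genes of the rule, listed here or not. Some neighbours lay far apart in level. cyp-35A1, at most 1.13 RPKM, lies next to cyp-35A2, at up to 155 RPKM, and ugt-56 with its neuronal TRAP level lies next to ugt-55, which no neuronal table listed. cyp-33C12 lies next to cyp-32B1, at 7.11 and 6.23 RPKM in intestine TRAP, where cyp-33C12 was not listed. In the run of cyp-33C4, cyp-33C3, cyp-33C5, cyp-33C6 and cyp-33C7, serotonin changes ranged from -1.06 to 1.21, the top being cyp-33C3 at 4.53 and 4.90 RPKM for TRAP and 1.28 and 1.67 RPKM for input (adjusted p = 0.134; paired adjusted p = 0.031).

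The partners of the P450 enzymes went both ways in serotonin and dopamine TRAP, in counts too small to set against all genes. By paired p 9.77% and 8.44% of all genes were higher there and 29% and 30.5% lower. Of emb-8 (the P450 reductase), cytb-5.1 and cytb-5.2 (cytochrome b5), vem-1 (a membrane heme-binding protein) and daf-9 (the P450 of dafachronic acid synthesis), 0 passed without pairing in any purification, and by paired p 1 was higher and 2 lower in each of serotonin and dopamine. emb-8 stood at 42.5 and 54.8 RPKM in serotonin TRAP against 18.99 and 24.1 RPKM in input (1.14 ± 0.38, paired adjusted p = 0.0214), and at 54.4 and 54.6 RPKM in dopamine TRAP against 11.5 and 36.1 RPKM (1.36 ± 0.63, paired adjusted p = 0.0163). Both TRAP libraries exceeded both inputs in each. vem-1 stood at 9.99 and 13.4 RPKM in dopamine TRAP against 51.6 and 76.6 RPKM in input (-2.35 ± 0.53, paired adjusted p = 3.40e-05). In intestine the 1 call was cytb-5.1, higher by paired p (paired adjusted p = 0.0140), where 2.26% of all genes were higher. It stood at 604 and 1715 RPKM for TRAP and 239 and 734 RPKM for input.

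For the sugar donor of the UGT enzymes, sqv-4 (UDP-glucose dehydrogenase) and K08E3.5 (a UDP-glucose pyrophosphorylase) were read. sqv-4 was lower by paired p in intestine, serotonin and dopamine, and in dopamine stood at 23.5 and 27.8 RPKM for TRAP and 120 and 82.4 RPKM for input (-1.92 ± 0.51, paired adjusted p = 0.00058). K08E3.5 was called in none, with changes from 0.01 to 0.61. Of 23 ABC exporter genes of the pgp and mrp families 17 were tested in serotonin and dopamine, with 3 and 4 lower and 0 higher by paired p, where 29% and 30.5% of all genes were lower, and 18 in intestine with 1 lower, mrp-6, where 20.9% of genes were lower. pgp-2 was among them, at 3.10 and 6.15 RPKM in dopamine TRAP against 25.9 and 18.1 RPKM in input (-2.07 ± 0.63, paired adjusted p = 0.0015).

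Of 15 regulators of these genes, 3 were higher and 0 lower in neuronal TRAP by limma without pairing, where 16.8% of all genes were higher, and 0 passed in the other purifications. The 3 were hif-1 (hypoxia-inducible factor), ahr-1 (aryl hydrocarbon receptor) and aha-1, the dimerization partner of both. hif-1 stood at 227 and 376 RPKM against 45.97 and 12.97 RPKM in input (3.52 ± 0.94, adjusted p = 0.0038), and ahr-1 at 9.34 and 6.86 RPKM against 0 and 0.0521 RPKM (3.14 ± 0.83, adjusted p = 0.0037). aha-1 passed narrowly (3.44 ± 1.31, adjusted p = 0.0486), and its paired adjusted p was 0.0501. ahr-1 had both inputs below 1 RPKM and so could only be tested where TRAP was high. Without neuronal input replicate 2 none of the 3 passed, with changes of 2.64 for hif-1, 3.17 for ahr-1 and 3.01 for aha-1 and limma adjusted p of 0.061 to 0.090. By paired p 2 regulators were higher and 2 lower in serotonin, and 1 higher and 2 lower in dopamine. The same fits held 9.77% and 8.44% of all genes higher and 29% and 30.5% lower. skn-1, the Nrf-type factor of the oxidative stress response, was higher by paired p in serotonin and dopamine, at 41.2 and 44.2 RPKM in dopamine TRAP against 7.72 and 15.2 RPKM in input (1.88 ± 0.57, paired adjusted p = 0.0014).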

How the data were processed

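RNA of 5 C. elegans strains was measured in 2 TRAP and 2 input libraries each. The submitters' processing notes name STAR and HTSeq, whose versions and the build are not given in the sources used here. The deposited tables give RPKM per gene, computed by the authors for each library, and list a gene where TRAP or input of that replicate reached 1 RPKM. Per the file headers a count column stands beside each RPKM column. The values show that in one arm of each replicate the deposited counts are whole reads with 1 added, and that in the other arm the deposited signal was multiplied by 1 factor per library. Undoing this gave whole reads for 99.1% to 100% of low values. The authors' enriched-gene tables hold a mean enrichment ratio of TRAP over input, with a fold cut-off set by the authors.

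TRAP was set against input with limma 3.58.1 in R 4.3.3 (lmFit and eBayes with a trend) on log2 (RPKM + 1), over genes that both replicates listed and whose mean reached 1 RPKM, and p-values were adjusted by Benjamini-Hochberg over all genes tested at 0.05. RPKM are not counts, so edgeR 4.0.16 (quasi-likelihood) on the recovered reads was an alternative. It called 286 genes higher and 10 lower in muscle and 0 in the other 4 purifications. Further alternatives were the replicate block, RLE scaling, a pseudocount of 0.1, no filter and leaving out each library. The replicate block joined with RLE scaling was added after seeing the data. The scripts were tested on simulated data.

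Replicate numbers were read as pairs because the file headers place TRAP and input of a replicate side by side. Deviations of same-numbered TRAP and input from their group means correlated at 0.45 to 0.68 over all genes in the 5 purifications. Nothing shows whether replicates came from separate cultures beyond the headers calling them biological. The p-values thus reflect library spread alone, which may be technical. limma also pools this spread over genes. In the paired fits of muscle, intestine, neuronal and dopamine the prior degrees of freedom were infinite, so a gene's own spread had no weight. The same held without pairing in muscle and neuronal, and nearly so in intestine (568). Very small paired p there do not measure the spread of that gene.

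Named were all members called (up to 12 per comparison), the 4 highest members by mean TRAP RPKM in each purification and members with a textbook role. Members outside that rule, among them cyp-33C3, cyp-33C6, cyp-35C1, ugt-12, ugt-18, ugt-43, ugt-55 and ugt-62, were chosen after their values were seen. The members and lists were chosen with earlier results of these data known. Names and gene order came from a RefSeq table (WBcel235) that held 120 of the 121 members. Promoter sequences were not used here.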

Additional observations from a re-analysis of the deposited data

Results flagged for a closer look

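The change of cyp-36A1 differed between the dopamine and serotonin purifications, by -3.45 (dopamine minus serotonin, log2 scale). The limma adjusted p was 0.795, and 0.0092 with the replicate as a block. TRAP lay above both inputs in serotonin and below both in dopamine.

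For cyp-31A1 the change in intestine minus that in neuronal was -3.13 (log2 scale), where the median of all genes was -1.44. That median was 0.11 under RLE and -0.61 without neuronal input replicate 2. The limma adjusted p was 0.106, and 0.0664 with the replicate as a block, so the difference did not pass either test. TRAP lay below both inputs in intestine and above both in neuronal. RefSeq annotates this gene as a pseudogene in a subfamily of close copies, whose reads are uncertain.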

How the results depend on the processing

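With the replicate block, members called were 1 higher and 13 lower in intestine (without it 0 and 4), 2 higher and 48 lower in serotonin and 52 lower in dopamine (without it 0), and 1 with a lower change in dopamine than in serotonin (without it 0). The other counts stayed within 1.5 times under the block. With the block and RLE scaling, chosen after seeing the data, they were 1 higher in muscle, 22 higher in intestine, 1 lower in neuronal, 3 higher and 29 lower in serotonin, 2 higher and 37 lower in dopamine, 1 with a higher change in intestine than in muscle, 1 with a higher change in intestine than in neuronal, and 1 with a lower change in dopamine than in serotonin. In that joint fit 12.8% of all genes were higher in muscle and 15.2% lower in neuronal. A higher change in intestine was called for 9.25% of genes against muscle and 10.7% against neuronal. A lower change in dopamine than in serotonin was called for 0.214%. The 4 lower members in intestine became 1 at a pseudocount of 0.1 (2.68% of all genes), 0 under RLE and 0 by edgeR. The 5 higher members in neuronal became 1 under RLE (10.1% of all genes) and 0 by edgeR. The causes were not tested.

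Leaving out 1 library at a time, in limma fits that assume the lone library varies like the other group, gave 0 to 3 members lower in muscle, 0 to 8 lower in intestine, 0 to 4 higher in neuronal and 0 to 4 lower in dopamine. It gave 0 to 1 members with a higher and 0 to 13 with a lower change in intestine than in neuronal. Over all alternatives 151 counts stayed within 1.5 times of the reported count and 33 moved. Most reported counts were 0, so most of the 151 were a 0 that stayed 0. The counts above 0 were less stable. With all libraries kept, the 4 lower in intestine ran from 0 to 13 and the 5 higher in neuronal from 0 to 7. Of the values for single named genes 121 stayed on their side of the threshold, 20 passed it newly and 41 no longer passed, with no called value changing sign.

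Depth limits the neuronal inputs most, where a listed member had a median of 25 and 14 reads. Intervals across 2 libraries per group are wide, and a gene unlisted in a replicate could not be tested.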
